A study of Mus musculus with 9 samples.

Results

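The dopamine receptor genes Drd1, Drd2, Drd3, Drd4 and Drd5 were followed in the striatum of R6/2 and wild-type mice. Their members were the probe sets that the platform annotation assigned to exactly 1 gene with one of these symbols. Of the 5 genes, 4 had such a probe set. Together they had 6 probe sets, of 45101 on the array, and the 4 genes were among 18193 genes with an array value. No probe set was assigned to Drd5, which was not analysed here. Where a gene had more than 1 probe set, the one with the highest mean over the 9 arrays was taken as its main one, and the others are shown beside it.

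Striatal RNA came from 9 female mice of the C57Bl/6 / CBA strain, 1 array for each mouse, so each n counts separate animals. The R6/2 group, animals R62_86, R62_95, R62_105, R62_107, R62_109 (5 in all), expresses exon 1 of the mutant human huntingtin gene as a transgene, a model of Huntington disease, and the 4 wild-type mice (WT_46, WT_47, WT_49 and WT_66) do not carry it. All were labelled as 12 weeks old. In days, R6/2 mouse R62_86 and the 4 wild-type mice were 85 days old, and the other 4 R6/2 mice were 83 days old. The comparison asked which striatal transcripts differ between the genotypes at this age, and the labels name no treatment.

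Dopamine receptors are G protein-coupled receptors of the neurons that receive dopamine from the midbrain. The D1-like receptors, Drd1 and Drd5, couple to stimulatory G proteins and raise cyclic AMP, and the D2-like receptors, Drd2, Drd3 and Drd4, couple to inhibitory G proteins and lower it. In the striatum Drd1 marks the spiny projection neurons of the direct pathway, which also make the peptides dynorphin and substance P. Drd2 marks those of the indirect pathway, which make enkephalin, and it also serves as an autoreceptor on dopamine terminals. Drd3 is known mostly from the ventral striatum and the islands of Calleja, and Drd4 from cortex and retina.

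Promoter windows of Drd1 and Drd2, the receptor genes whose values moved together, are printed with that of Drd3, whose values did not pass the test. The windows are RefSeq sequences of build GRCm38.p6. Each spans 300 bases, 250 before an annotated start and 50 from it onward, and is written 5′ to 3′ on the strand of the gene. Capitals mark matches to GGGCGG, the GC box bound by Sp-family factors, read on both strands, so that CCGCCC is the same match on the opposite strand. Of the 2 annotated starts of Drd1, the one shown lies at chr13:54055609-54055908, minus strand. The Drd2 window is chr9:49340153-49340452, plus strand, and the Drd3 window is chr16:43761971-43762270, plus strand. As genes, Drd2 begins at chr9:49340360, before the start its window uses, and Drd3 at chr16:43754015, upstream of its whole window. The Drd3 window therefore lies inside the gene and may not be its promoter.
Drd1: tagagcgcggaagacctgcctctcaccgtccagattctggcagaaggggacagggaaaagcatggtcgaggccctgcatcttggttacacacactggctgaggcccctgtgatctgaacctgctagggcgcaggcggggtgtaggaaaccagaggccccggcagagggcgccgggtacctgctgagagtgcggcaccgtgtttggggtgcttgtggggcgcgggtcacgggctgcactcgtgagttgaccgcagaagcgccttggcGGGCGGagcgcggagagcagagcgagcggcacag
Drd2: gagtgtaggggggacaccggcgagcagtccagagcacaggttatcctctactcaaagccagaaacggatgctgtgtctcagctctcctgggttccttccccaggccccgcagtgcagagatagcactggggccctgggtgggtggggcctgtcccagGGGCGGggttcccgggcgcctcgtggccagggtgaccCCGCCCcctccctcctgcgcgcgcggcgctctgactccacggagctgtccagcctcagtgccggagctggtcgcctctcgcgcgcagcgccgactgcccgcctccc
Drd3: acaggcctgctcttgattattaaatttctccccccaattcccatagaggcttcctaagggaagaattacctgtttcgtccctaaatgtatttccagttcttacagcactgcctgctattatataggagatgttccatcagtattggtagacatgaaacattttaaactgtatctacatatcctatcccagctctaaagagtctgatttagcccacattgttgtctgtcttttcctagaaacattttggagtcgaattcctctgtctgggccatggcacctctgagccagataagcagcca

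The Drd1 window held 1 GC box, 16 bases after the start, and the Drd2 window held 2, whose first bases lay at -93 and -56 relative to the start used for that window. The Drd3 window, which lies inside the gene, held none. In all, 35.7% of 32851 mouse promoter windows of this length held this motif, so its presence is common. The 3 windows also differed in base composition. GC content was 65.7% in Drd1 and 70.3% in Drd2, against a median of 52.7% over all windows, and it was 42.0% in Drd3. Drd4, with 58.0% GC, had 3 GC boxes, of which the first pair overlapped, and its receptor values did not pass the test either. The window of the other Drd1 start held 1. A further 4 motifs were read on both strands, namely TATAAA (the TATA box, in 13.6% of all windows), TGACG (the core of a cyclic AMP response element, 20.8%), GCGNGGGCG (an Egr site, 5.55%) and AGGTCA (the core of a nuclear receptor site, 16.3%). None of these 4 motifs occurred in the windows of the 5 receptor genes. A match or its absence describes these letters only.

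Drd1 and Drd2 were both lower in R6/2 striatum, and Drd3 and Drd4 did not pass the test. All values are RMA expression values on the log2 scale, where 1 unit is a 2-fold step. Differences are given as the R6/2 mean minus the wild-type mean, with the standard error (SE) from limma. A gene was called at a Benjamini-Hochberg adjusted p under 0.05 over all genes. By that rule 16.9% of the 18193 genes were called in either direction, 7.57% as lower and 9.28% as higher in R6/2 mice (1378 and 1688 genes, against 3788 and 496 after arrays were centred on housekeeping genes), and 2 of the 4 receptor genes were called, both lower. The groups did not overlap in the same 2 receptor genes, which was so for 17.3% of all genes, with R6/2 below wild-type in 8.09%. Bulk tissue was measured, so fewer cells of a type and less RNA per cell cannot be told apart.

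Drd1, the main D1-like receptor of the striatum, was read by 2 probe sets, and its main one, 1456051_at, was brighter than 97.4% of all probe sets. Its log2 values were 10.07, 10.08, 9.44, 10.44 and 9.92 in R62_86, R62_95, R62_105, R62_107 and R62_109, against 11.42, 11.41, 11.49 and 11.42 in WT_46, WT_47, WT_49 and WT_66. Values per mouse keep this order throughout. Every R6/2 mouse lay below every wild-type mouse. The R6/2 mice spread about their mean (9.99 ± 0.36, SD, n = 5) more widely than the wild-type mice (11.44 ± 0.04, SD, n = 4), and mouse R62_105 was the lowest. Drd1 fell by 1.45 ± 0.16 (SE) on the log2 scale (limma, adjusted p = 0.000315), to 0.367 of the wild-type level with a 95% interval of 0.289 to 0.465. Of all genes, 0.242% had a log2 difference at or below that of Drd1.

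The other Drd1 probe set, 1455629_at, had log2 values of 9.40, 9.44, 8.68, 9.64 and 9.22 in R6/2 mice, against 10.87, 10.76, 11.05 and 11.08 in wild-type mice. The groups did not overlap, and R6/2 mouse R62_105 was again the lowest. This probe set fell by 1.66 ± 0.17 (SE) on the log2 scale (limma over all probe sets, adjusted p = 0.000686). Both probe sets of Drd1 therefore passed the test in the same direction.

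Drd2, the D2-like receptor of indirect pathway neurons, had 1 probe set, 1418950_at, brighter than 92.4% of all probe sets. Its log2 values were 8.79, 9.22, 7.97, 8.98 and 8.38 in R6/2 mice, against 9.96, 9.97, 10.38 and 10.66 in wild-type mice. The groups did not overlap, R6/2 mouse R62_105 was the lowest, and wild-type mouse WT_66 was the highest. Drd2 fell by 1.58 ± 0.24 (SE) on the log2 scale (limma, adjusted p = 0.00186), to 0.336 of the wild-type level with a 95% interval of 0.232 to 0.485. Of all genes, 0.198% had a log2 difference at or below that of Drd2.

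Drd3 was read by a dim probe set, 1422278_at, brighter than 12.3% of all probe sets. Its log2 values were 3.31, 3.31, 3.34, 3.43 and 3.28 in R6/2 mice, against 3.38, 3.40, 3.78 and 3.30 in wild-type mice. The groups overlapped, and wild-type mouse WT_49 stood above all others. The log2 difference of -0.13 ± 0.09 (SE) did not pass the test (adjusted p = 0.389), and its 95% interval ran from -0.33 to 0.08. Probe sets this dim follow the amount of RNA poorly in general, so this interval concerns the array value.

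Drd4 was read by 2 dim probe sets, and the main one, 1422829_at, was brighter than 31.8% of all probe sets. Its log2 values were 4.19, 4.19, 4.01, 4.19 and 4.17 in R6/2 mice, against 4.28, 4.31, 4.25 and 4.18 in wild-type mice. Wild-type mouse WT_66 lay among the R6/2 mice, so the groups overlapped. The log2 difference was -0.11 ± 0.06 (SE) and did not pass the test (adjusted p = 0.268, 95% interval -0.24 to 0.03). It passed after arrays were centred on housekeeping genes (-0.26, adjusted p = 0.0441), a setting that put the median of all genes at -0.17. In the fit over all probe sets, this probe set did not pass in that setting (adjusted p = 0.0525). The other probe set, 1422830_s_at, differed by -0.04 ± 0.07 (SE, adjusted p = 0.781), and its groups overlapped too. Of the 6 receptor probe sets, 3 passed the test, all lower. Over all probe sets, 10.4% were called in either direction and 4.57% as lower. In the same 3 every R6/2 mouse lay below every wild-type mouse, which was so for 6.01% of all probe sets.

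**Figure D1:**
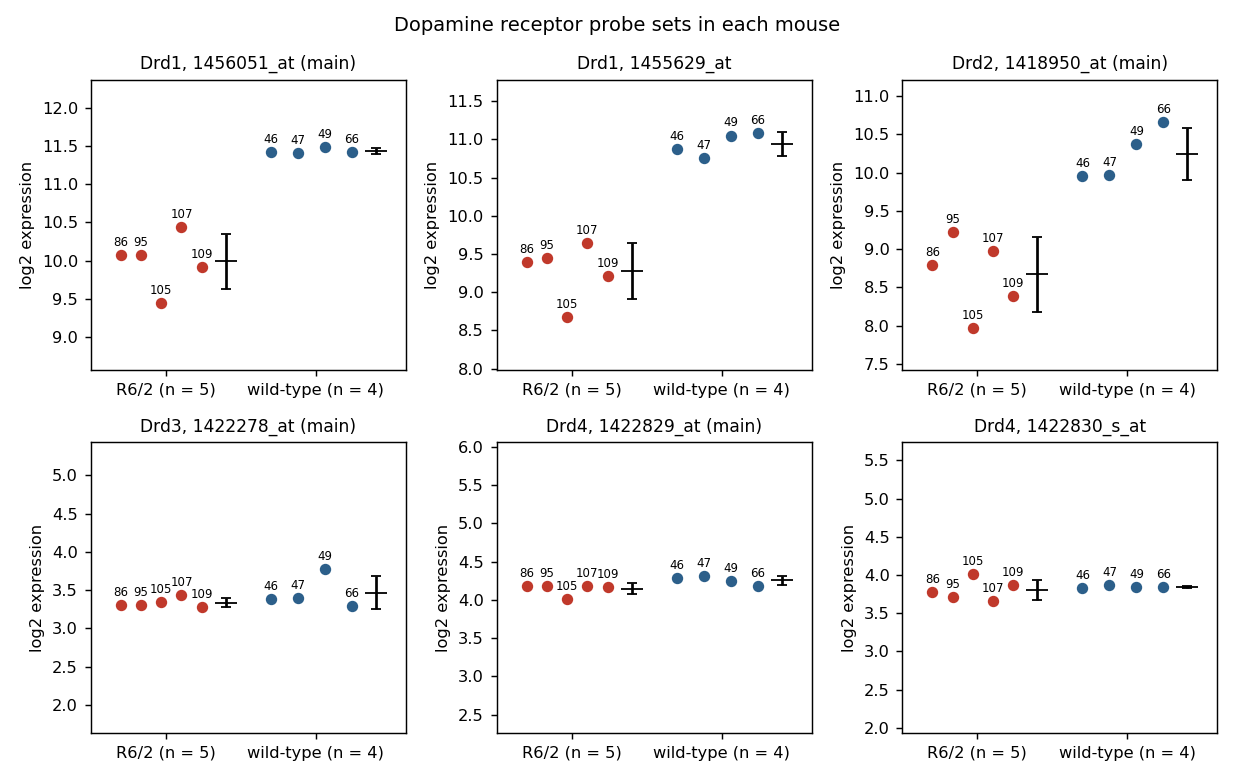
Log2 expression of the 6 dopamine receptor probe sets, 1 point for each mouse with its number, R6/2 mice in red and wild-type mice in blue; bars give the mean and SD, and every panel spans the same number of log2 units. Both Drd1 probe sets and the Drd2 probe set separate the genotypes, with R6/2 mouse R62_105 lowest, and the Drd3 and Drd4 probe sets do not.

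Shared markers of spiny neurons moved with Drd1 and Drd2. The mean log2 value of 19 shared spiny neuron markers, the neurons that carry Drd1 and Drd2, deviated from the wild-type mean by -1.18, -1.10, -1.78, -0.97 and -1.33 in the R6/2 mice, against -0.09, -0.05, -0.06 and 0.20 in wild-type mice. Drd1 deviated by -1.37, -1.36, -1.99, -0.9996 and -1.52 in the same R6/2 mice, and Drd2 by -1.45, -1.03, -2.28, -1.27 and -1.86. Mouse R62_105 was lowest in all 3, and mouse R62_107 was highest in Drd1 and in the spiny neuron score, whereas mouse R62_95 was highest in Drd2. The score separated the genotypes fully, so a fit that holds it constant has little left to estimate. In that fit the log2 difference was -0.20 for Drd1 (adjusted p = 0.91) and 0.39 for Drd2 (adjusted p = 0.875).

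Of 11 measured markers of cortex projection neurons, the cells of the tissue above the striatum, 4 rose and 1 fell in R6/2 mice. Their mean log2 value was 6.85 to 7.73 in R6/2 mice, against 6.17 to 7.18 in wild-type mice. Mouse R62_105, lowest in Drd1 and Drd2, had the highest cortex score of all mice, and mouse R62_107 had the lowest of the R6/2 mice. With this score in the fit, Drd1 was lower by a log2 difference of -1.16 (adjusted p = 0.0122) and Drd2 by -0.94 (adjusted p = 0.0323), and both differences were smaller than without it. In the fit over all probe sets, the Drd2 probe set did not pass with this score (adjusted p = 0.0693), and both Drd1 probe sets did. Markers of choroid plexus and ependyma had mean log2 values of 5.13 to 6.66 in R6/2 mice, against 5.48 to 7.90 in wild-type mice. By the test, 1 of 10 was called higher and none lower, but their median log2 difference was -1.07. Wild-type mice WT_47 and WT_66 had the highest scores. Without the 3 arrays with the highest choroid plexus score, the log2 difference was -1.58 for each of Drd1 (adjusted p = 0.0131) and Drd2 (adjusted p = 0.0367). Over all probe sets, the Drd2 probe set did not pass in that setting either (adjusted p = 0.0838).

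Age differed with genotype by 2 days in 4 of the 5 R6/2 mice. With age in days in the fit, only mouse R62_86 informs the genotype difference at a shared age. The log2 difference was then -1.37 for Drd1 (adjusted p = 0.0804) and -1.45 for Drd2 (adjusted p = 0.184), and neither passed the test, although all 3 of their probe sets had an unadjusted limma p under 0.05. R6/2 mouse R62_86 alone, set against the 4 wild-type mice of the same age, deviated by -1.37 in Drd1, -1.45 in Drd2, -0.15 in Drd3 and -0.07 in Drd4, with no test.

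**Figure D2:**
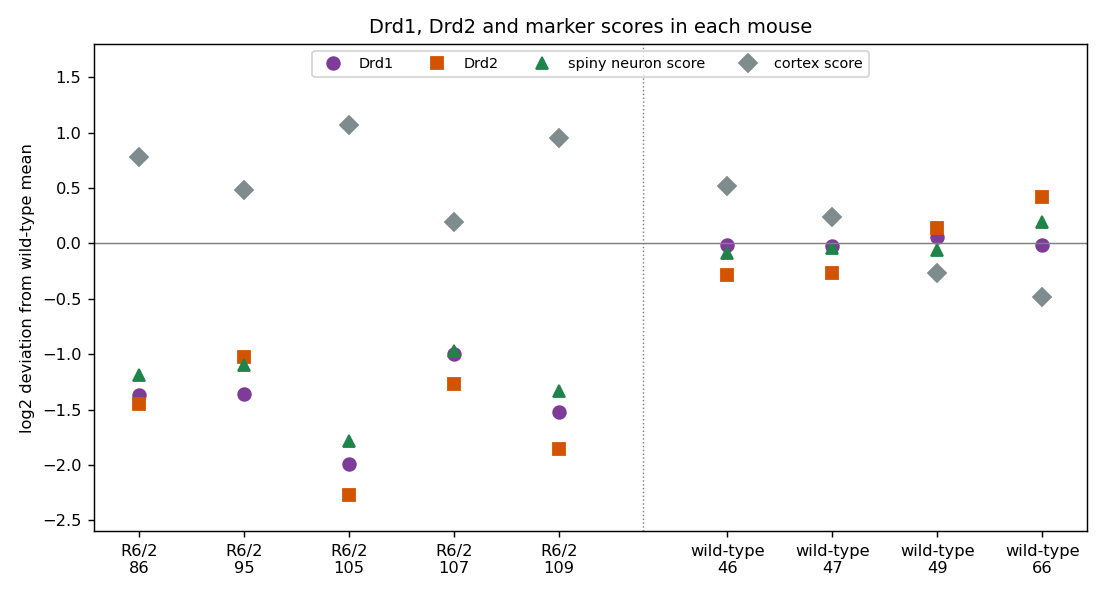
Deviation of Drd1, Drd2, the spiny neuron score and the cortex score from their wild-type mean, in log2 units, for each mouse by genotype and number. Drd1, Drd2 and the spiny neuron score lie below every wild-type mouse in all 5 R6/2 mice and lowest in mouse R62_105, which has the highest cortex score.

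Whether the receptors fell by different amounts was tested on the difference of their log2 values within each mouse. In all, 9 pairs of genes were compared, each by an exact permutation test (two-sided) that used every split of the mice into 5 and 4. Its smallest p is 0.00794, and p-values were adjusted over the 9 pairs (Benjamini-Hochberg). Levels of different probe sets are not comparable, so values are given relative to the wild-type mean of the same pair. For Drd1 minus Drd2 they were 0.08, -0.33, 0.28, 0.27 and 0.34 in R6/2 mice, against 0.28, 0.24, -0.08 and -0.44 in wild-type mice. The genotypes overlapped, with a difference of 0.13 and a 95% interval of -0.35 to 0.61 (exact permutation p = 0.484, adjusted p = 0.545). The sign of this difference turned without wild-type mouse WT_66 (-0.02).

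Drd1 and Drd2 were also set against the dim Drd3 and Drd4 probe sets. The differences were -1.32 for Drd1 minus Drd3, -1.34 for Drd1 minus Drd4, -1.45 for Drd2 minus Drd3 and -1.47 for Drd2 minus Drd4, each in 5 of 5 R6/2 mice. Each had an exact permutation p of 0.00794, the smallest the design allows, and an adjusted p of 0.0143. Drd3 minus Drd4 differed by -0.02 with a 95% interval of -0.27 to 0.23 (exact permutation p = 0.881, adjusted p = 0.881), and by 0.09 without wild-type mouse WT_49. Because probe sets as dim as those of Drd3 and Drd4 follow RNA poorly, the first 4 differences carry the falls of Drd1 and Drd2 again. They do not show how those falls compare with changes of Drd3 and Drd4 transcripts. Fewer mice allow fewer splits. With 1 mouse left out the adjusted p of these 4 pairs reached 0.0514, and without the 3 arrays rich in choroid plexus markers no pair could pass, since the smallest exact permutation p is then 0.0667.

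Drd1 and Drd2 were next set against the peptide genes of their own neurons. Tac1, which encodes substance P in direct pathway neurons, had log2 values of 11.71, 11.69, 11.07, 11.88 and 11.62 in R6/2 mice, against 11.83, 11.89, 11.87 and 12.00 in wild-type mice, and 4 of the 5 R6/2 mice lay below all wild-type mice. Its log2 difference of -0.30 ± 0.14 (SE) did not pass the test (adjusted p = 0.163), although it did after centring on housekeeping genes (-0.45, adjusted p = 0.0383). Drd1 minus Tac1, relative to the wild-type mean, was -1.19, -1.15, -1.16, -0.98 and -1.24 in R6/2 mice, against 0.06, -0.02, 0.08 and -0.12 in wild-type mice. The values were alike within each genotype, also in mouse R62_105, where both genes were at their lowest. Drd1 thus fell relative to Tac1, with a difference of -1.14 and a 95% interval of -1.29 to -0.99 (exact permutation p = 0.00794, adjusted p = 0.0143). That p is the smallest the design allows. With 1 mouse left out, which allows fewer splits, the adjusted p of this pair reached 0.0514.

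Pdyn, which encodes prodynorphin in direct pathway neurons, had log2 values of 6.96, 7.06, 5.95, 7.17 and 6.60 in R6/2 mice, against 7.81, 7.97, 8.12 and 8.04 in wild-type mice, with no overlap. It fell by 1.24 ± 0.21 (SE) on the log2 scale (adjusted p = 0.00351), but with the cortex score as a covariate it did not pass (-0.78, adjusted p = 0.105). Drd1 minus Pdyn differed by -0.21, with a 95% interval of -0.46 to 0.05 (exact permutation p = 0.119, adjusted p = 0.153). That pair passed with the mean of all probe sets of a gene (-0.32, adjusted p = 0.0357) and without R6/2 mouse R62_105 (-0.27, adjusted p = 0.0429).

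Penk, which encodes enkephalin in indirect pathway neurons, had log2 values of 10.97, 11.28, 10.33, 11.12 and 10.76 in R6/2 mice, against 12.64, 12.74, 12.80 and 12.90 in wild-type mice. It fell by 1.88 ± 0.16 (SE) on the log2 scale (adjusted p = 0.000127), with no overlap. Drd2 minus Penk was above its wild-type mean in 5 of 5 R6/2 mice, at 0.16 to 0.47, against -0.23 to 0.29 in wild-type mice. The difference of 0.31 had a 95% interval of 0.01 to 0.61 and did not pass the test (exact permutation p = 0.0556, adjusted p = 0.0833), although it passed without wild-type mouse WT_66 (0.40, adjusted p = 0.0268).

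**Figure D3:**
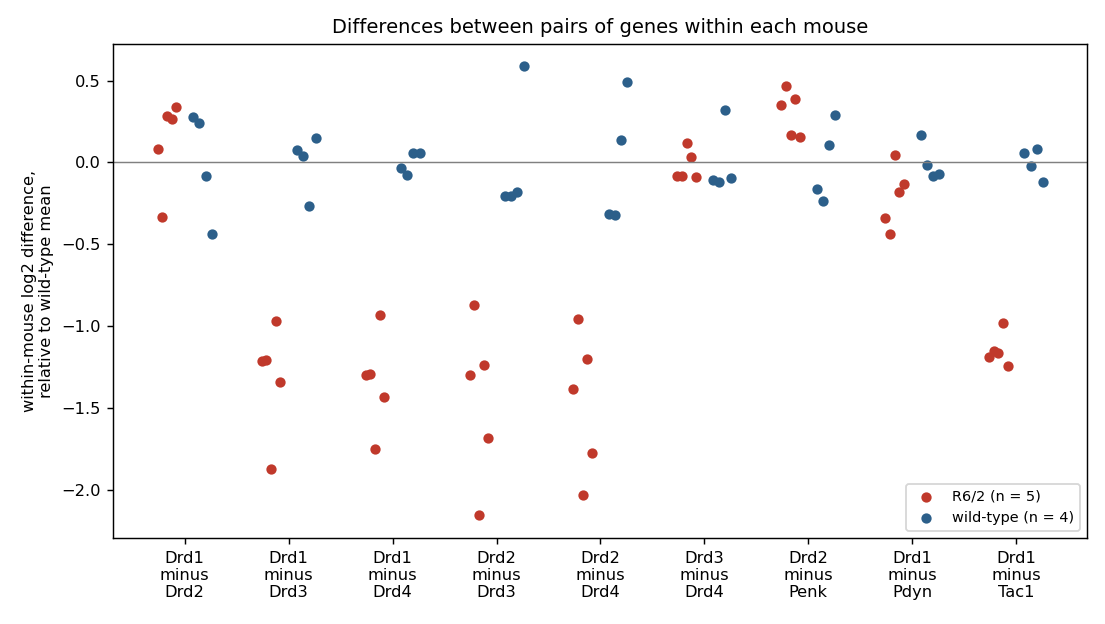
Difference of the log2 values of 2 genes within a mouse, relative to the wild-type mean of that pair, for 9 pairs; R6/2 mice are red and wild-type mice blue. The 5 pairs with a difference between -1.14 and -1.47 separate the genotypes. In 4 of them the gene subtracted is Drd3 or Drd4, which were dim, so they show the Drd1 and Drd2 falls again, and the other is Drd1 minus Tac1.

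The other markers of the same neurons were mixed. Of 9 measured direct pathway markers, Drd1 among them, 5 fell, none rose and 4 did not pass the test, with a median log2 difference of -0.38 against -0.02 over all genes. Slc35d3, a transporter of the endoplasmic reticulum needed to bring the D1 receptor to the cell surface, fell by 1.30 ± 0.21 (SE, adjusted p = 0.00225). Eya1, a transcription cofactor, had a difference of 0.12 (adjusted p = 0.54), which was -0.03 after centring on housekeeping genes. Of 5 measured indirect pathway markers, Drd2 among them, 3 fell, none rose and 2 did not pass. Their median of -1.58 was the value of Drd2 itself, so it does not describe the other markers. Gpr6, a receptor of indirect pathway neurons, fell by 1.67 ± 0.17 (SE, adjusted p = 0.000253), and the kainate receptor gene Grik3 had a difference of 0.12 (adjusted p = 0.669), which was -0.03 after that centring. Of the 19 shared spiny neuron markers all 19 fell, with a median of -1.26. Scn4b, a sodium channel subunit, fell by 2.71 ± 0.25 (SE, adjusted p = 0.000154). Ppp1r1a, which encodes an inhibitor of protein phosphatase 1, fell by 1.12 ± 0.08 (adjusted p = 3.4e-05).

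Most of the immediate signalling partners of Drd1 fell in the reported fit. Of 7 genes for the G protein and cyclase of the D1 side, 5 fell, 1 rose and 1 did not pass, with a median log2 difference of -0.80. With the cortex score 1 of the 7 was lower, and without the 3 arrays with the highest choroid plexus score 2 were. Gnal, Gng7 and Adcy5 of this list are also shared spiny neuron markers. Gnal, the olfactory-type stimulatory G protein that couples striatal D1 receptors, fell by 0.59 ± 0.12 (SE, adjusted p = 0.00885). Adcy5, the main striatal adenylyl cyclase, fell by 1.49 ± 0.20 (adjusted p = 0.000815), and Rgs2, a regulator of G protein signalling, by 0.94 ± 0.17 (adjusted p = 0.00397). Gnas, the general stimulatory G protein, rose by 0.60 ± 0.10 (adjusted p = 0.00347), but as the mean of its probe sets it differed by 0.19 (adjusted p = 0.0537).

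Partners of the D2-like receptors gave calls in both directions. Of 14 genes for inhibitory G proteins, their regulators and channels, 5 fell, 3 rose and 6 did not pass, with a median log2 difference of -0.05. None of the 14 was higher after centring on housekeeping genes, with the cortex score or without the choroid-rich arrays, whereas 6, 4 and 4 were lower. Rgs9, the striatal regulator that shortens D2 receptor signalling, fell by 1.71 ± 0.20 (SE, adjusted p = 0.000463), and Rgs4, another such regulator, by 1.69 ± 0.16 (adjusted p = 0.000162). Rgs7bp, which anchors Rgs9 at the membrane, fell by 0.77 ± 0.09 (adjusted p = 0.000405). Gnai1, an inhibitory G protein, rose by 0.35 ± 0.08 (adjusted p = 0.0116) and lost the call as the mean of its probe sets (0.36, adjusted p = 0.073). Proteins that bind or desensitize the receptors showed 4 rises and 2 falls among 15, and 9 did not pass, with a median of 0.04. With the cortex score or without the choroid-rich arrays, 1 of the 15 was higher and 0 were lower. Grk5, a receptor kinase, fell by 0.63 ± 0.12 (SE, adjusted p = 0.00477). Gprasp1, which sorts the D2 receptor for degradation, rose by 0.61 ± 0.07 (adjusted p = 0.000315), and Cadps, a vesicle priming protein that binds the D2 receptor, by 0.61 ± 0.11 (adjusted p = 0.00374).

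Downstream of the receptors, most effectors of spiny neurons fell. Of 19 measured, 14 fell, 2 rose and 3 did not pass, with a median log2 difference of -0.90. Of those that fell, Ppp1r1b, Arpp21, Pde1b, Pde10a, Ptpn5, Rasgrp2 and Rasd2 are also shared spiny neuron markers. Ppp1r1b, which encodes DARPP-32, the protein through which dopamine controls protein phosphatase 1, was 10.63 ± 0.48 in R6/2 mice (SD, n = 5) and 12.33 ± 0.22 in wild-type mice (SD, n = 4), a fall of 1.70 ± 0.22 (SE, adjusted p = 0.000691). Arpp19, another cyclic AMP-regulated phosphoprotein, fell by 1.77 ± 0.11 (adjusted p = 3.19e-05). Ppp1ca, a catalytic subunit of protein phosphatase 1, fell by 0.80 ± 0.08 (adjusted p = 0.000302). Arpp21 fell by 1.27 ± 0.09 (adjusted p = 5.4e-05), but not when its probe sets were averaged (-0.25, adjusted p = 0.216). Prkar1b, which encodes a regulatory subunit of the cyclic AMP-dependent kinase, rose by 0.53 ± 0.11 (adjusted p = 0.00917).

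**Figure D4:**
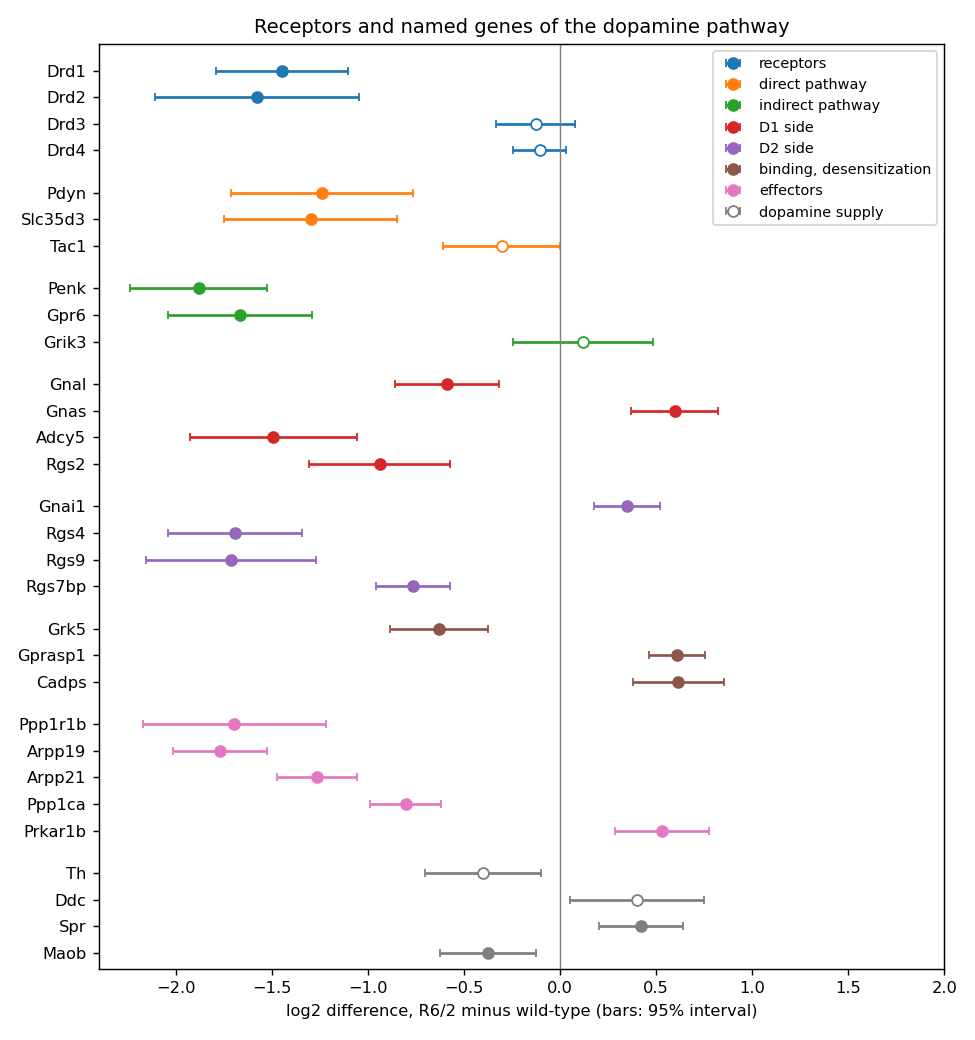
Log2 difference, R6/2 minus wild-type, with its 95% interval for the receptors and named genes of the dopamine pathway, coloured by role; filled points passed the adjusted p of 0.05 and open ones did not. Drd1, Drd2, both opioid peptide genes, Adcy5, the Rgs genes and most effectors lie left of 0, and Gnas, Gnai1, Gprasp1, Cadps, Prkar1b and Spr lie right of it.

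Genes for the supply of dopamine mostly did not pass. Of 11 genes for its synthesis, transport and breakdown, 2 fell, 1 rose and 8 did not pass, with a median log2 difference of -0.06. Over all genes 7.57% fell and 9.28% rose, so not passing was no trait of this list. Th encodes tyrosine hydroxylase, the rate-limiting enzyme of dopamine synthesis. It was 5.45 ± 0.21 in R6/2 mice (SD, n = 5) and 5.85 ± 0.27 in wild-type mice (SD, n = 4). The log2 difference of -0.40 did not pass (adjusted p = 0.0711). It did without wild-type mouse WT_47 (-0.51, adjusted p = 0.0306) and after centring on housekeeping genes (-0.55, adjusted p = 0.0221). Ddc, the enzyme of the next step, differed by 0.40 (adjusted p = 0.109), and passed without R6/2 mouse R62_105 (0.51, adjusted p = 0.0416). Spr, sepiapterin reductase, which makes the cofactor of tyrosine hydroxylase, rose by 0.42 ± 0.10 (SE, adjusted p = 0.0149). Maob, a monoamine oxidase, fell by 0.38 ± 0.11 (adjusted p = 0.0443) and Aldh1a1, an aldehyde dehydrogenase, by 0.73 ± 0.22 (adjusted p = 0.0453), and each call was lost when any of 7 of the 9 mice was left out. Of 12 markers of midbrain dopamine neurons, whose cell bodies lie outside the striatum, Aldh1a1 fell and the other 11 did not pass. After centring on housekeeping genes 5 of the 12 were lower. The mean of the housekeeping genes was itself 0.15 higher in R6/2 mice, and that setting put the median of all genes at -0.17. Lmx1a, a transcription factor of these neurons, differed by -0.24 (adjusted p = 0.079), and passed after that centring (-0.39, adjusted p = 0.0224) and with array weights (-0.28, adjusted p = 0.0307).

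Falls were also counted among other receptors of the striatum, a list that shares Cnr1, Gpr6 and Chrm4 with the marker lists above. Of 16 other G protein-coupled receptors, 11 fell, none rose and 5 did not pass, with a median log2 difference of -0.59. Cnr1, the cannabinoid receptor CB1, fell by 1.33 ± 0.13 (SE, adjusted p = 0.000213), and Hrh3, the histamine H3 receptor, fell by 1.14 ± 0.13 (adjusted p = 0.00036). Oprm1, the mu opioid receptor, differed by 0.14 (adjusted p = 0.384), and by -0.01 after centring on housekeeping genes. Of the adrenergic receptors, which also belong to the catecholamine receptors, Adra2c fell by 1.03 ± 0.16 (adjusted p = 0.00186). Adra1b differed by -0.02 (adjusted p = 0.948). Among 19 transcription factors of striatal neurons, 7 fell, 1 rose and 11 did not pass, with a median of -0.28. Of those that fell, Rarb, Foxp1, Bcl11b and Meis2 are also shared spiny neuron markers. Foxp1, a forkhead factor of spiny neurons, fell by 0.70 ± 0.09 (SE, adjusted p = 0.000617). Creb1, a factor activated by cyclic AMP signalling, rose by 0.50 ± 0.06 (adjusted p = 0.000434), though not as the mean of its probe sets (0.16, adjusted p = 0.153).

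Beside these counts, the other cell and tissue markers were as follows. Of cholinergic interneuron markers 3 of 5 fell, of ventral striatum and island of Calleja markers 2 of 8 fell and 1 rose, of astrocyte markers 6 of 10 fell, of microglia markers 5 of 10 fell (9 after centring on housekeeping genes) and of oligodendrocyte markers 3 of 9 fell. Of 7 housekeeping genes 2 rose. With the cortex score in the fit, 2 receptor genes, 1 direct pathway marker, 3 indirect pathway markers, 14 shared spiny neuron markers and 10 effectors were lower, beside 302 of all 18193 genes. Without the 3 arrays with the highest choroid plexus score these counts were 2, 3, 3, 15 and 11, beside 489 of all genes. The 1 direct pathway marker called with the cortex score was Drd1 itself. In both settings Drd1 and Drd2 are counted as receptor genes and again as pathway markers. In the same pair of settings the lower counts were 1 and 2 for D1-side partners, 6 and 8 for other G protein-coupled receptors, and 4 and 4 for transcription factors. They were 0 and 3 for cholinergic interneuron markers, 0 and 2 for astrocyte markers, 0 and 2 for microglia markers, and 0 and 1 for oligodendrocyte markers. Gnal, Grk5, Gnai1, Cadps, Prkar1b, Spr and Maob passed in neither setting. Pdyn, Gnas, Rgs2, Slc35d3, Adra2c and Aldh1a1 lost their calls with the cortex score alone, at adjusted p-values of 0.0618 to 0.182. Of the 195 measured list members, 96 passed in the reported fit, beside 3066 of all genes, and 3 passed with age in days as a covariate, beside 30 of all genes. The part of other cell types in the remaining differences was not tested.

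The genes most like Drd1 and Drd2 were found by the root mean square (RMS) difference of their log2 profiles over the 9 mice, each profile centred on its own mean. Nearest to Drd1 was Cd4, which encodes a surface protein best known from helper T cells, at an RMS of 0.0867. It was followed by Lingo3, a leucine-rich repeat membrane protein, at 0.114, and Rarb, a retinoic acid receptor, at 0.133. These genes had log2 differences of -1.50, -1.41 and -1.26. Nearest to Drd2 were Ppp1r1b (RMS 0.106), Rasd2, a small G protein of the striatum also called Rhes (0.124), and Gpr83, an orphan-type receptor (0.169), with log2 differences of -1.70, -1.48 and -1.59. Drd2 ranked 81 among genes by nearness to Drd1, and Drd1 ranked 25 by nearness to Drd2, both at an RMS of 0.273. Pdyn ranked 12 for Drd1 and Penk 11 for Drd2, whereas Tac1 ranked 963 for Drd1. Likeness here is a description over 9 mice that share the genotype step.

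**Figure D5:**
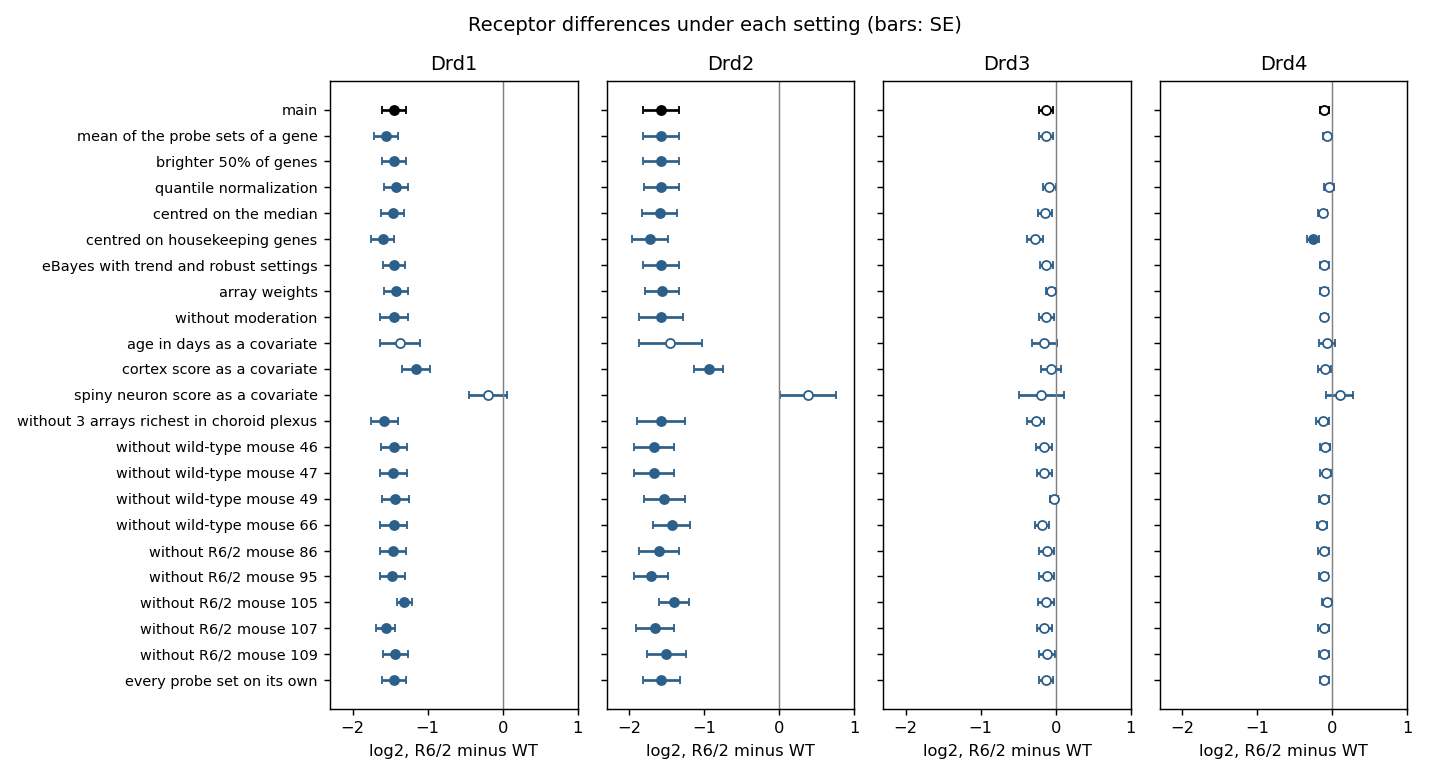
Log2 difference, R6/2 minus wild-type, of Drd1, Drd2, Drd3 and Drd4 with its SE under each processing setting; filled points passed an adjusted p of 0.05 and open ones did not, and the reported fit is black. Drd1 and Drd2 stay between -0.94 and -1.73 except with the spiny neuron score as a covariate, and open points for them appear with age and with that score.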

How the data were processed

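Striatal RNA was labelled with biotin by in vitro transcription and hybridised to Affymetrix arrays, per the labels' protocols. The deposited values are log2 expression of 45101 probe sets, made with RMA and affy per the submitters' processing notes, with versions not given in the sources used here. RMA gives arrays a shared distribution, so differences are relative to the other genes of an array. After removal of 64 control probe sets, 34945 probe sets named exactly 1 gene in the platform annotation, 932 named several and 9160 were unnamed. The brightest probe set of each of 18193 genes was fitted with limma 3.58.1 in R 4.3.3, genotype as the only term, two-sided, with no filter on dim probe sets. Array medians lay between 5.37 and 5.44 and correlations of arrays between 0.979 and 0.995. The number of arrays limits the precision.

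The members and the 21 gene lists (220 genes, 195 measured) were chosen with earlier results of these data known. Named genes were a fixed set (Penk, Pdyn, Tac1, Ppp1r1b, Gnal, Adcy5, Th), up to 4 members of each list (those with the 3 lowest p-values and the strongest member whose sign opposes the median) and the 3 nearest profiles. Members of lists for other cell types and housekeeping are given by counts. Of 14 gene pairs planned, 9 could be computed, since Drd5 and Adora2a were not analysed here. Alternatives changed the probe set summary, scaling, moderation, covariates and the mice included.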

Additional observations from a re-analysis of the deposited data

Results flagged for a closer look

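A single mouse stood apart from its group, by Dixon's test at the 95% level, in 11 of 158 tested groups (6.96%), where chance gives about 5%. Among the receptors, R6/2 mouse R62_105 was low in Drd4 probe set 1422829_at, at a log2 value of 4.01 against 4.17 to 4.19 in the other R6/2 mice. Wild-type mouse WT_47 was high in Drd4 probe set 1422830_s_at, at 3.87 against 3.84 in the other wild-type mice. Wild-type mouse WT_66 was high in Drd2 minus Drd3, at 7.37 against 6.58 to 6.60, and wild-type mouse WT_49 in Drd3 minus Drd4, at -0.47 against -0.91 to -0.89.

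Of the other genes, Gnal was high in wild-type mouse WT_66 (11.64, others 11.41 to 11.42), Grk5 in wild-type mouse WT_49 (7.56, others 7.23 to 7.26) and Oprm1 in R6/2 mouse R62_107 (5.07, others 4.92 to 4.96). Among mean log2 values of lists, receptor desensitization and binding proteins were high in R6/2 mouse R62_95 (8.35, others 8.18 to 8.21). Other striatal G protein-coupled receptors were low in R6/2 mouse R62_105 (7.03, others 7.35 to 7.41). Wild-type mouse WT_66 was high in indirect pathway markers (10.27, others 9.91 to 9.97) and shared spiny neuron markers (11.68, others 11.39 to 11.44).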

How the results depend on the processing

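Drd1 kept its direction in all 22 alternatives and its call in 20, and Drd2 kept its call in 20 of 22. Leaving out each mouse gave -1.56 to -1.31 for Drd1, -1.71 to -1.40 for Drd2, -0.18 to -0.02 for Drd3 and -0.13 to -0.07 for Drd4. Drd3 and Drd4 were not among the brighter 50% of genes, so that alternative gave them no value. Age as a covariate gave -1.37 for Drd1 and -1.45 for Drd2 with no call, 0 receptor probe sets, 30 genes and 3 list members, against 3, 3066 and 96 without it. The spiny neuron score as a covariate gave -0.20 for Drd1, 0.39 for Drd2, 0.10 for Drd4, and 0 genes, list members and receptor probe sets. In limma fits with age, 2506 genes and 3 receptor probe sets had an unadjusted p under 0.05, and with the spiny neuron score 1200 genes, 27 list members and 1 receptor probe set did. With that score the sign turned for Pdyn (0.59), Tac1 (0.87), Ppp1r1b (0.19), Gnal (0.45), Adcy5 (0.14), Th (0.17), Spr (-0.0285), Rgs2 (0.40), Rgs9 (0.0296), Gnai1 (-0.0221), Cadps (-0.17), Slc35d3 (0.45), Adra2c (0.16) and Rasd2 (0.38), none called. Of these, Ppp1r1b, Gnal, Adcy5, Rgs9 and Rasd2 are themselves part of the score. Differences of its members cancel on average in this fit by construction, so falls of some must be matched by rises of others. The cortex score as a covariate left 526 genes and 35 list members, leaving out the 3 arrays with the highest choroid plexus score 882 and 54, a fit without moderation 2006 genes, and every probe set on its own gave 4683. Centring on housekeeping genes gave Drd4 -0.26 with a call in the gene fit only, Eya1 -0.0264, Grik3 -0.0334 and Oprm1 -0.0150. Signs of small differences also turned for Eya1 without the choroid-rich arrays (-0.0723), for Grik3 with array weights (-0.00151) and without wild-type mouse WT_49 (range over mice left out -0.0876 to 0.250), for Oprm1 as the mean of its probe sets (-0.0174), and for Adra1b with quantile normalization (0.0392), array weights (0.102), age (0.145) and without wild-type mouse WT_49, R6/2 mouse R62_95 or R6/2 mouse R62_107 (range over mice left out -0.115 to 0.104). Apart from that built-in cancelling among members of the spiny neuron score, the cause of the turns was not tested.

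Without the choroid-rich arrays, with 4 R6/2 and 2 wild-type mice and a smallest exact p of 0.0667, the pairs gave -0.00338 for Drd1 minus Drd2, -1.31 for Drd1 minus Drd3, -1.45 for Drd1 minus Drd4, -1.31 for Drd2 minus Drd3, -1.45 for Drd2 minus Drd4 and -1.25 for Drd1 minus Tac1. Leaving out each mouse gave -0.0169 to 0.243 for Drd1 minus Drd2, -1.41 to -1.18 for Drd1 minus Drd3, -1.44 to -1.24 for Drd1 minus Drd4, -1.59 to -1.25 for Drd2 minus Drd3, -1.60 to -1.30 for Drd2 minus Drd4, -1.19 to -1.12 for Drd1 minus Tac1, -0.0602 to 0.0858 for Drd3 minus Drd4, 0.23 to 0.40 for Drd2 minus Penk and -0.27 to -0.15 for Drd1 minus Pdyn, which gave -0.32 as the mean of probe sets. The highest adjusted p of the 5 called pairs was 0.0514 with a mouse left out, in designs with fewer splits. No paired analysis was possible because the genotypes share no mouse numbers.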
